A study of Mus musculus with 13 samples.

Results

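Acyl-CoA synthetases join a fatty acid to coenzyme A, and 10 genes for long-chain, very-long-chain and mitochondrial members of this enzyme group were followed in mouse parametrial white adipose tissue (pmWAT): Acsl3, Acsl4, Acsl5, Acsl6, Slc27a2, Slc27a3, Slc27a4, Acss1, Acss3 and Acsf2. They were chosen by symbol, leaving out Acsl1 and Slc27a1, and all 10 were found among the 33618 Ensembl identifiers of the count table. Bulk RNA-Seq had been run on whole pmWAT from 13 female mice, 7 labelled Lmna fl/fl and 6 labelled Lmna iADKO. Both groups carried Lmna alleles with loxP sites around exons 10 and 11, and both received tamoxifen at 50 mg/kg on 5 days when 12 to 14 weeks old, with collection 2 weeks later. The iADKO mice also carried 1 copy of Adipoq-CreERT2, a tamoxifen-activated recombinase driven by the adiponectin promoter and so restricted to adipocytes, and the fl/fl mice carried no Cre. The RNA came from all cells of the depot, so fewer adipocytes and less RNA per adipocyte cannot be told apart in these values.

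A fatty acid must be activated to its acyl-CoA before it can be esterified into triglyceride, built into a phospholipid or oxidised. The ACSL enzymes act on long chains and differ in membrane location and preferred chain, and the SLC27 proteins, also called fatty acid transport proteins, couple uptake to activation of long and very long chains. The ACSS enzymes act on short acids such as acetate and propionate, and ACSF2 is a mitochondrial enzyme for medium chains. In white adipocytes ACSL1 and SLC27A1 are the best known members, and the genes described here are their relatives.

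Libraries held 18854223 to 19776491 counted reads. Lmna, the targeted gene, was counted over its whole length and did not separate the labels: it lay at 74.7 to 98.5 CPM (counts scaled to a common library size after TMM normalisation) in fl/fl and at 80.1 to 109 CPM in iADKO, with a log2 fold change of 0.19 ± 0.079 (SE, edgeR adjusted p = 0.0785). Reads over the floxed exons were not counted apart, so every direction below rests on the genotype labels. All 7 adipocyte markers (Adipoq, Plin1, Cidec, Lep, Lipe, Pnpla2 and Fabp4) were lower in iADKO, with summed CPM of 10850 to 20250 in fl/fl and 7122 to 12560 in iADKO. Of 9 macrophage markers 6 were higher, with sums of 1410 to 2632 and 1824 to 3144 CPM, and no marker of either list was at 0 in total. T cell markers were higher for 2 of 5 (sums of 14.0 to 24.9 and 26.7 to 30.7 CPM, without overlap), B cell markers for 2 of 4 (19.7 to 53.1 and 33.9 to 72.6 CPM) and epithelial markers for 2 of 4 (11.1 to 38.6 and 21.3 to 171.5 CPM, the highest in iADKO library 6). Endothelial markers were lower for 2 of 5 (808.6 to 1145 and 844.6 to 978.4 CPM). Mural markers were lower for 1 of 4 (552 to 1114 and 644.6 to 1734 CPM), while 2 of the 4 had positive log2 fold changes that did not pass. No marker of progenitor, mesothelial, skeletal muscle, erythroid or glial cells passed the test. In both marker scores the fl/fl library 5 and the iADKO library 6 lay nearest the other genotype, and the fl/fl libraries 2 and 7 held hepatocyte transcripts (Alb and 6 others) at 221 and 153 CPM in sum, against 5.6 to 21.6 CPM in the other libraries. The part these mixtures play in the differences below was not tested, beyond the values given beside them.

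In iADKO pmWAT, 1 of the 10 synthetase genes was higher (Acss1) and 3 were lower (Acss3, Acsf2 and Slc27a2), while 6 did not pass the test (edgeR quasi-likelihood test, adjusted p over all genes under 0.05). Acss3 showed the clearest difference, at less than 50% of its fl/fl level. Slc27a2 was barely detected and lay at the threshold (edgeR adjusted p = 0.0499), and its call was lost in several fits given below. Across the 16753 genes tested, 30.5% were called, 14.1% as higher and 16.3% as lower, and the 4 of 10 synthetases called were not set apart from that background. The log2 fold changes of the members had a median of -0.064, with 5 above and 5 below 0, beside a median of 0.033 over all genes tested.

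**Figure D1:**
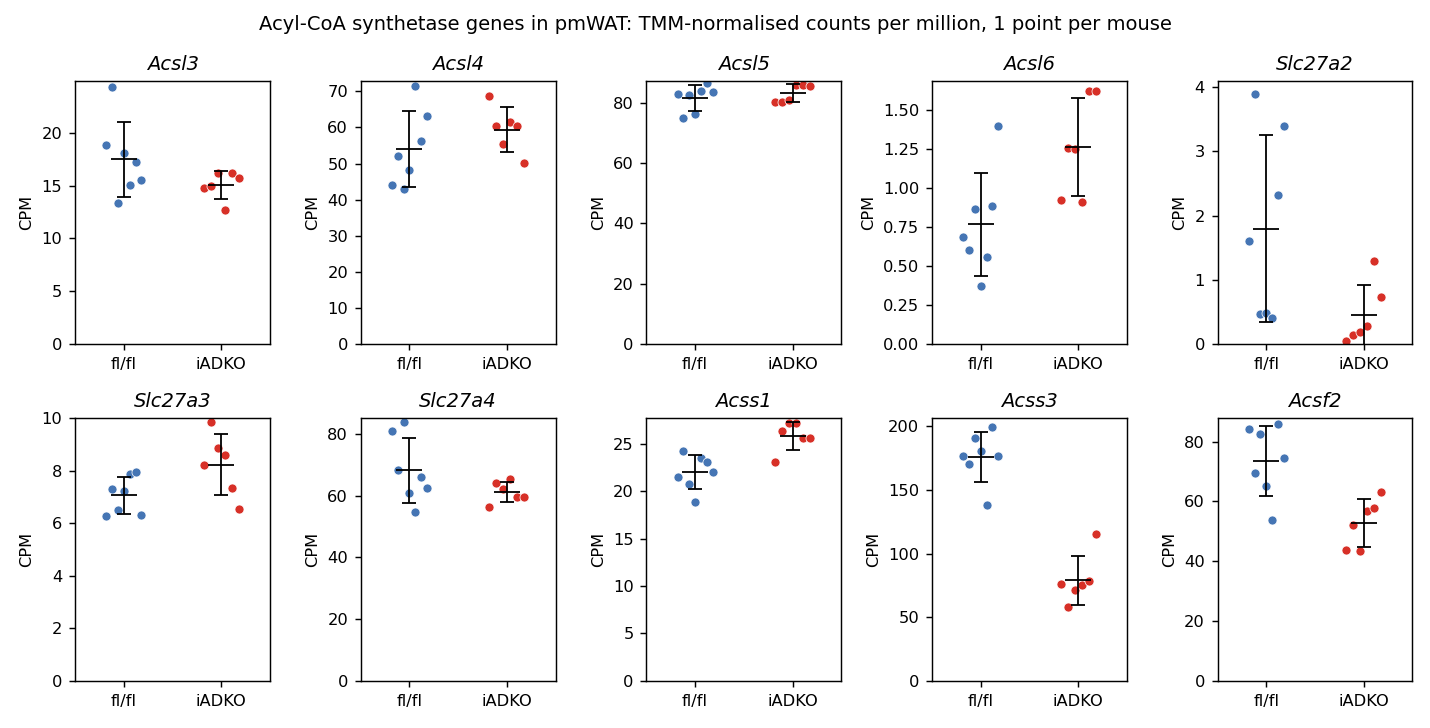
TMM-normalised CPM of the 10 synthetase genes (vertical axis, from 0) in fl/fl (blue, n = 7) and iADKO (red, n = 6), with 1 point per mouse and bars for mean and SD; the lower SD bar of Slc27a2 in iADKO is clipped at 0. Acss3 is the gene in which no iADKO mouse reached the lowest fl/fl mouse (highest iADKO 115 CPM, lowest fl/fl 138 CPM).

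The promoters of 3 members are shown because these genes took the 3 courses seen in the group: Acsf2 was lower, Acss1 was higher and Acsl5 held its level. Acss3, with the clearest difference, had no RefSeq promoter entry, so it could not be shown and is not among the windows searched below. Each run is the 250 bases before the RefSeq transcription start on GRCm38.p6, 5′ to 3′ on the strand of the gene, and capitals mark a GC box (GGGCGG) or a CCAAT box on either strand. Acsf2 lies at chr11:94601787-94602036 (minus strand), Acss1 at chr2:150668241-150668490 (minus strand) and Acsl5 at chr19:55253119-55253368 (plus strand).
Acsf2: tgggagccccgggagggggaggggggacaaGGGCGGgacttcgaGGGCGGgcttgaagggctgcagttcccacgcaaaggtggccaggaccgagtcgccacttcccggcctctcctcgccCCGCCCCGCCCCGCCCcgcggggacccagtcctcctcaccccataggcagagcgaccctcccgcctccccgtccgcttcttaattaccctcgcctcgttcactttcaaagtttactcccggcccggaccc
Acss1: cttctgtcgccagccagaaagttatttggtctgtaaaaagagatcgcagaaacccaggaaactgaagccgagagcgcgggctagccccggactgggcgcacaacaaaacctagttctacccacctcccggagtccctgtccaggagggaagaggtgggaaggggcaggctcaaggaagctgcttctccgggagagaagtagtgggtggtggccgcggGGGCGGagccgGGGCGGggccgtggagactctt
Acsl5: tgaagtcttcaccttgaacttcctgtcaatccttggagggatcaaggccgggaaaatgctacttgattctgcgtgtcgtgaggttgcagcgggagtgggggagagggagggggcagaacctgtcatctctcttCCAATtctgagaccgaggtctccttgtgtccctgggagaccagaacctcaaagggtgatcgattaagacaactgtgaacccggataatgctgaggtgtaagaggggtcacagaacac
The Acsf2 window held 5 GC boxes, some of them overlapping, the Acss1 window 2, and the Acsl5 window none but 1 CCAAT box. GC boxes were also in the windows of every other member with an entry. Acsl3, which did not pass the test, held 5 as well. Acsl4, Slc27a3 and Slc27a4, also not called, held 2 each, as did the lower Slc27a2. Whether the boxes relate to the courses of the genes was not tested. GC boxes are in 32.7% and CCAAT boxes in 33.8% of the 32851 promoter windows of this length in the table. Among the 9 members with an entry, no window held CACGTG (an E-box, in 6.02% of windows), TCACNCCAC (a sterol response element, 1.05%) or the direct repeat 1 motif bound by PPAR and RXR (0.0335%), on either strand. A match is a description of letters and not a binding site.

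The most separated difference was that of Acss3, a mitochondrial synthetase that prefers propionate (ENSMUSG00000035948, GRCm39 chr10:106769375-106959635, minus strand). Its level had a minimum of 138, a median of 177 and a maximum of 200 CPM in fl/fl, and of 57.7, 75.8 and 115 CPM in iADKO. All 6 iADKO libraries lay below the lowest fl/fl library. It was the 1 member whose groups did not overlap, against 6.64% of all genes tested (3.93% with iADKO lower and 2.71% with iADKO higher). The log2 fold change was -1.16 ± 0.13 (SE, n = 7 and 6; edgeR adjusted p = 0.000168, exact two-sided permutation p = 0.000583, the smallest 13 libraries allow), a level reduced by 55.1% in the fit and from 176 ± 19.4 to 79.0 ± 19.3 CPM (SD) in the means. It stayed at -1.08 or below when any 1 library was left out. The library of each genotype nearest the other was also the library of that group nearest the other in Acss3, and without both the log2 fold change was -1.37 (adjusted p = 6.31e-08). Exons of Acss3 share 2439 bp with those of Ppfia2 on the opposite strand, but Ppfia2 had 340 reads in all libraries together, against 32300 for Acss3.

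Acsf2 (ENSMUSG00000076435, GRCm39 chr11:94447924-94508609, minus strand) was the other mitochondrial gene of the group to be lower. Its level ran from 53.7 to 85.8 CPM in fl/fl, with a median of 74.4, and from 43.3 to 63.1 CPM in iADKO, with a median of 54.5. The groups overlapped: 3 of the 6 iADKO libraries lay below the lowest fl/fl library, which was library 5, and all 6 lay below the fl/fl median. The log2 fold change was -0.48 ± 0.12 (SE; edgeR adjusted p = 0.00853, exact permutation p = 0.00641). With the macrophage marker score as a covariate it was -0.14 (edgeR adjusted p = 0.647), and that of Acss3 was -0.77 (edgeR adjusted p = 0.00563). That score varied together with genotype, and with it 423 genes were called in all, against 5104 without it. Most calls in the data were thus lost under this covariate, and the cause of the shift in Acsf2 was not tested.

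Acss1 encodes the mitochondrial acetyl-CoA synthetase, which activates acetate for oxidation (ENSMUSG00000027452, GRCm39 chr2:150460020-150510420, minus strand), and it was the member that rose. In fl/fl it had a minimum of 18.9, a median of 22.0 and a maximum of 24.3 CPM, and in iADKO of 23.1, 26.0 and 27.1 CPM. The highest fl/fl library lay below 5 of the 6 iADKO libraries. The difference was small, a log2 fold change of 0.23 ± 0.063 (SE; edgeR adjusted p = 0.0143, exact permutation p = 0.00408) or 17.3% in the fit. It kept its call when any 1 library was left out, with log2 fold changes of 0.20 to 0.26, and with the macrophage score as a covariate it was 0.16 (adjusted p = 0.421).

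Slc27a2, a very-long-chain synthetase and transport protein best known in liver and kidney (ENSMUSG00000027359, GRCm39 chr2:126394327-126430166, plus strand), was barely detected. Raw counts were 8 to 71 reads per library in fl/fl and 1 to 27 in iADKO, which gave a minimum, median and maximum of 0.405, 1.61 and 3.90 CPM in fl/fl and of 0.0487, 0.240 and 1.29 CPM in iADKO. The fl/fl libraries fell into high and low values, with 3 of them between 0.405 and 0.483 CPM, and 4 of the 6 iADKO libraries lay below all of fl/fl. The log2 fold change was -1.98 ± 0.71 (SE; edgeR adjusted p = 0.0499, exact permutation p = 0.0321). The 2 highest values were in the fl/fl libraries 2 and 7, those with hepatocyte transcripts, and the other fl/fl libraries had 1.06 ± 0.867 CPM (SD, n = 5) against 0.449 ± 0.477 CPM (SD, n = 6) in iADKO. Slc27a2 passed the low-count filter through the fl/fl libraries 1, 2, 6 and 7 (28, 71, 42 and 63 reads) together with iADKO libraries 5 and 6 (27 and 15 reads). It fell below the filter without fl/fl library 1, 2, 6 or 7. The call was lost without iADKO library 1 (-1.75, edgeR adjusted p = 0.0894), 2 (-1.79, 0.10), 3 (-1.83, 0.0976), 4 (-1.88, 0.0954) or 6 (-2.18, 0.0532).

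The 4 ACSL members did not pass the test. Acsl5, an enzyme of the endoplasmic reticulum and mitochondria (ENSMUSG00000024981, GRCm39 chr19:55240267-55286153, plus strand), was the steadiest: it lay between 75.0 and 86.5 CPM in fl/fl, with a median of 82.8, and between 80.0 and 85.9 CPM in iADKO, with a median of 83.1. All 6 iADKO libraries lay within the fl/fl range. Its log2 fold change was 0.03 ± 0.045 (SE, adjusted p = 0.663) with a 95% interval of -0.06 to 0.11. Its exons share 2217 bp with those of Zdhhc6 on the opposite strand, which differed by -0.12 on the log2 scale (adjusted p = 0.0641), and the strand setting of the counting is not given in the sources used here.

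Acsl4, which prefers arachidonic acid and is known for its part in ferroptosis (ENSMUSG00000031278, GRCm39 chrX:141100840-141173789, minus strand), had a minimum of 43.0, a median of 52.0 and a maximum of 71.4 CPM in fl/fl and of 50.1, 60.3 and 68.7 CPM in iADKO. The highest value of all was in the fl/fl library 5 and the lowest iADKO value in library 6, the libraries nearest the other genotype in their markers. Its log2 fold change was 0.14 ± 0.11 (SE, edgeR adjusted p = 0.385), with a 95% interval of -0.09 to 0.36, and -0.20 (adjusted p = 0.396) with the macrophage score as a covariate. Acsl3, an enzyme of lipid droplets and the endoplasmic reticulum (ENSMUSG00000032883, GRCm39 chr1:78635537-78685461, plus strand), lay at 13.4 to 24.3 CPM in fl/fl and 12.7 to 16.2 CPM in iADKO, with medians of 17.2 and 15.3. The iADKO mice were all below the fl/fl median, but only 1 was below the fl/fl range, and the log2 fold change was -0.21 ± 0.12 (SE, edgeR adjusted p = 0.176). It was -0.12 (adjusted p = 0.346) without fl/fl library 2, which had the highest Acsl3 value and is one of those with hepatocyte transcripts. Exons of Acsl3 share 842 bp on the same strand with Utp14b, which had 1432 reads in all libraries together against 4119 for Acsl3, and counting by strand cannot tell these apart in the shared stretch.

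Acsl6, best known in brain for activating docosahexaenoic acid (ENSMUSG00000020333, GRCm39 chr11:54194352-54255587, plus strand), was at the edge of the threshold and of detection. Its minimum, median and maximum were 0.376, 0.690 and 1.40 CPM in fl/fl and 0.911, 1.26 and 1.62 CPM in iADKO. All 6 iADKO libraries lay above the fl/fl median and 2 above the fl/fl maximum, which was library 7. The log2 fold change was 0.72 ± 0.26 (SE; edgeR adjusted p = 0.0519, exact permutation p = 0.0221, not adjusted over genes). It passed the threshold without fl/fl library 7 (0.93, adjusted p = 0.0106), iADKO library 1 (0.80, 0.0459) or iADKO library 4 (0.80, 0.0485).

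The remaining SLC27 members did not pass either. Slc27a4, a transport protein best known in skin and intestine (ENSMUSG00000059316, GRCm39 chr2:29692598-29710004, plus strand), lay at 54.8 to 83.8 CPM in fl/fl and 56.4 to 65.5 CPM in iADKO, with medians of 66.2 and 61.0. The iADKO range lay inside that of fl/fl, and the log2 fold change was -0.15 ± 0.090 (SE, edgeR adjusted p = 0.202), or 0.0196 with the macrophage score as a covariate. Slc27a3 (ENSMUSG00000027932, GRCm39 chr3:90291676-90297320, minus strand) lay at 6.26 to 7.95 CPM in fl/fl and 6.53 to 9.84 CPM in iADKO, with medians of 7.25 and 8.40. Above the fl/fl maximum were 4 iADKO libraries, and the log2 fold change was 0.22 ± 0.10 (SE, edgeR adjusted p = 0.12). Without iADKO library 6 it was 0.28 (adjusted p = 0.0406).

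**Figure D2:**
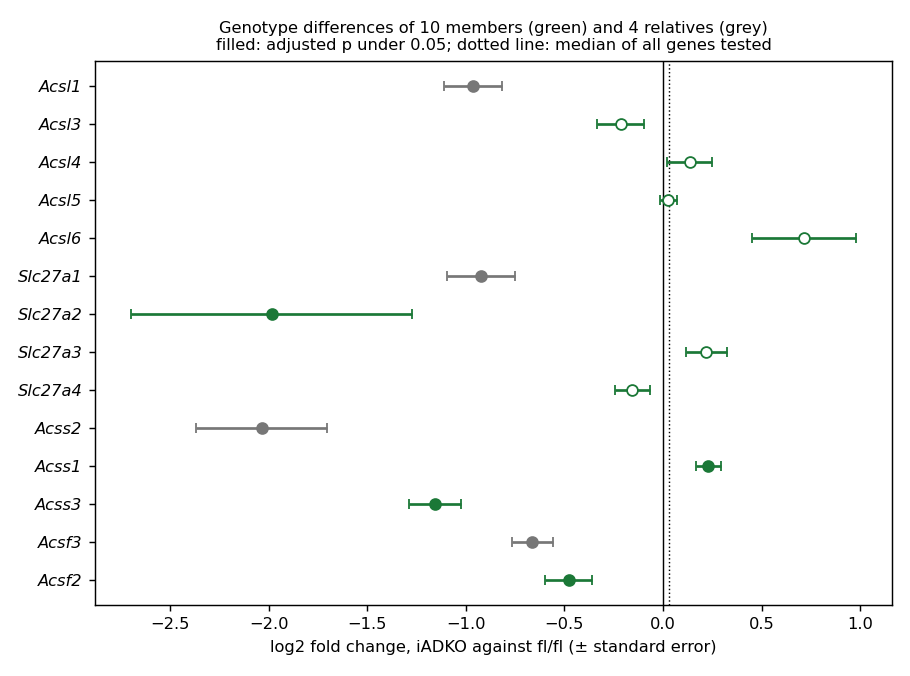
Log2 fold changes of iADKO against fl/fl (horizontal axis, points, bars: standard errors) for the 10 members in green and 4 relatives in grey, filled where the adjusted p is under 0.05, with a dotted line at the median of all genes. Acss3 at -1.16 lies near the grey points of Acsl1 (-0.96) and Slc27a1 (-0.92), and Acsl5 at 0.03 lies on the median line.

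Each member was compared with a relative of the same family outside the group. In 7 of 10 pairs the ratio of member to relative was higher in iADKO past the threshold. That can also hold for a gene that merely kept its level, because all the relatives were lower. Acsl1 fell from 3264 ± 476 to 1675 ± 386 CPM (log2 fold change -0.96 ± 0.15 SE), Slc27a1 from 1273 ± 239 to 671 ± 180 CPM (-0.92 ± 0.17), the cytosolic acetyl-CoA synthetase Acss2 from 544 ± 210 to 133 ± 41.4 CPM (-2.04 ± 0.33) and Acsf3, the mitochondrial malonyl-CoA synthetase, from 34.3 ± 3.61 to 21.7 ± 3.74 CPM (-0.66 ± 0.10). Whether a member's difference differed from that of its relative was tested on the log2 ratio of the 2 genes within each library, over 10 pairs. The ratio was higher in iADKO for these 7 pairs (exact permutation tests, each with a Benjamini-Hochberg adjusted p = 0.00416). All the relatives were lower in iADKO, while the median log2 fold change of all genes tested was 0.033. A gene that merely held its level would therefore also show a higher ratio to them. The share of all genes that would pass the same test was not computed, and several pairs share a relative. Against Acsl1, the increase was 0.78 for Acsl3, 1.13 for Acsl4, 1.01 for Acsl5 and 1.68 for Acsl6 on the log2 scale. Against Slc27a1 it was 1.15 for Slc27a3 and 0.80 for Slc27a4. The widest gap was that of the acetyl-CoA synthetases, where the Acss1 to Acss2 ratio rose by 2.15, from -4.46 ± 0.903 to -2.31 ± 0.375 (SD, n = 7 and 6). In that pair the fl/fl library 5, with Acss2 at 133 CPM against 452 to 766 CPM in the other fl/fl libraries, was the one fl/fl library within the iADKO range.

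In the other 3 pairs the ratio did not pass the threshold. Acss3 against Acss2 differed by 0.74 (exact permutation test, adjusted p = 0.0510), by 1.00 without fl/fl library 5 (adjusted p = 0.00433) and by 0.82 without iADKO library 2 (adjusted p = 0.0474). Acsf2 against Acsf3 differed by 0.19 (exact permutation test, adjusted p = 0.0874), and by 0.25 without iADKO library 3 (adjusted p = 0.0268). Slc27a2 against Slc27a1 differed by -0.80 (exact permutation test, adjusted p = 0.263), with a wide spread in both groups, and by -0.49 without fl/fl library 2 (adjusted p = 0.463) or -1.14 without iADKO library 5 (adjusted p = 0.142).

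**Figure D3:**
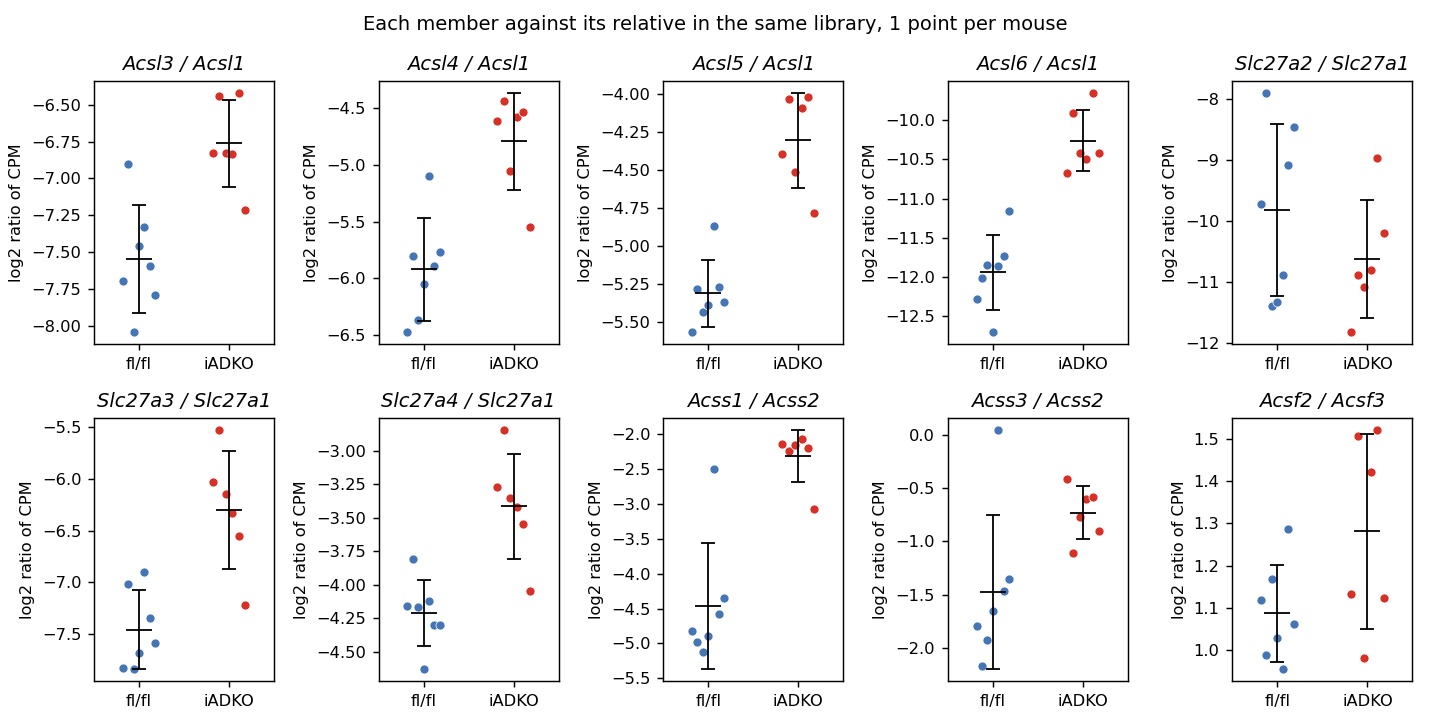
Log2 ratio of each member's CPM to that of a relative in the same library (vertical axis, scaled per panel), with 1 point per mouse and bars for mean and SD in fl/fl (blue, n = 7) and iADKO (red, n = 6). All 6 iADKO mice lie above the highest fl/fl mouse for Acsl5 and Acsl6 against Acsl1, while the groups overlap in the other panels.

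Levels were also set side by side per length, as CPM per kb of the gene's exons. In fl/fl the order was Acss3 (20.1 ± 2.22), Acsf2 (19.1 ± 3.04), Acsl5 (13.7 ± 0.706), Slc27a4 (9.63 ± 1.5), Acsl4 (9.08 ± 1.75), Acsl3 (3.21 ± 0.649), Acss1 (3.07 ± 0.254), Slc27a3 (1.87 ± 0.189), Slc27a2 (0.384 ± 0.311) and Acsl6 (0.070 ± 0.0301; SD, n = 7). Within it, Acss3 and Acsf2, Slc27a4 and Acsl4, and Acsl3 and Acss1 did not differ beyond their SD. In iADKO the mitochondrial pair no longer led: Acsl5 stood at 14.0 ± 0.495, Acsf2 at 13.7 ± 2.07, Acsl4 at 9.98 ± 1.04, Acss3 at 9.02 ± 2.20 and Slc27a4 at 8.64 ± 0.467 CPM per kb (SD, n = 6). Of these, Acsl5 and Acsf2 were not separated beyond their SD, nor was Acsl4 from Acss3 or Acss3 from Slc27a4. Below them followed Acss1 (3.60 ± 0.209), Acsl3 (2.76 ± 0.239), Slc27a3 (2.18 ± 0.307), Acsl6 (0.115 ± 0.0287) and Slc27a2 (0.096 ± 0.102), of which only the last 2 were not separated. The order depends on the length used: by the GENCODE canonical transcript, which is 3.252 kb for Acss3 against 8.758 kb for all its exons, Acss3 was first in both genotypes, at 54.1 ± 5.98 and 24.3 ± 5.92 CPM per kb, in iADKO not separated beyond the SD from Acsl5 (19.1 ± 0.676), and in fl/fl Acss1 stood above Acsl3.

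**Figure D4:**
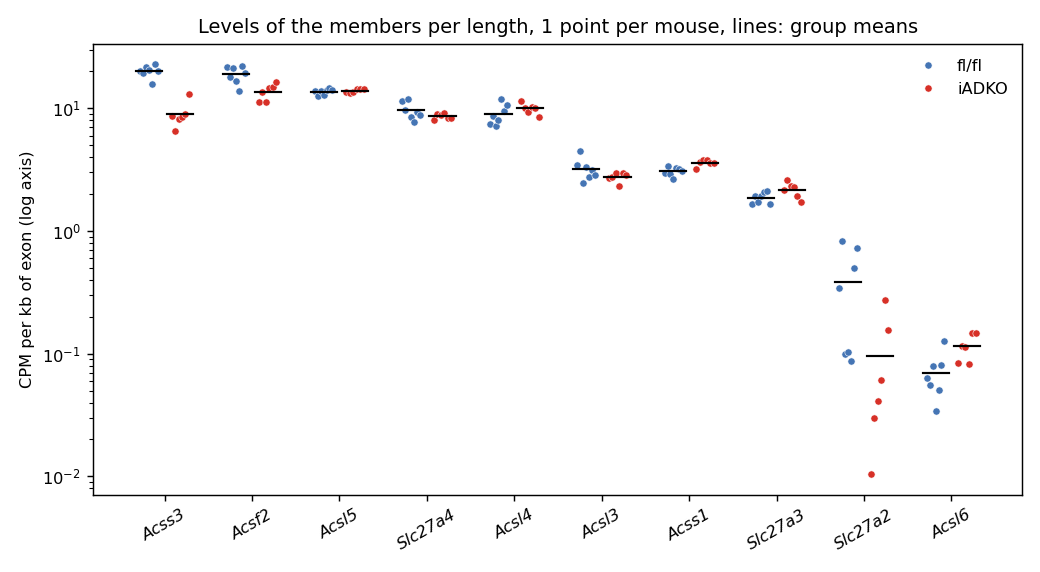
CPM per kb of exon (vertical log axis) of the 10 members, ordered by their fl/fl level, with 1 point per mouse (fl/fl blue, n = 7; iADKO red, n = 6) and lines at the group means. Acss3 and Acsf2 lead in fl/fl at 20.1 and 19.1, and in iADKO Acss3 lies beside Acsl4 and Slc27a4.

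As shares of each family's summed CPM per kb, Acsl1 made up 88.3% ± 2.25 (SD, n = 7) of the ACSL transcripts in fl/fl and 78.8% ± 3.75 (SD, n = 6) in iADKO. Acsl5 made up 6.12% ± 0.831 and 11% ± 1.79, and Acsl4 4.12% ± 1.29 and 7.94% ± 1.76. Among the SLC27 genes, the share of Slc27a4 was 7.07% ± 1.08 and 11.5% ± 2.54. Of the ACSS transcripts Acss1 held 6.60% ± 2.77 in fl/fl and 19.2% ± 3.29 in iADKO, and Acss3 held 41.6% ± 9.53 and 46.6% ± 3.84. These shares are a description and carry no test. They used the length of all exons of each gene, and shares by the canonical transcript were not computed. Unlike the genotype differences of the ratios above, the percentages depend on the length used, as the order of levels did.

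The animal numbers in the library names fall into 4 runs, and 2 of them hold both genotypes, a run of 4 mice with 2 of each label and a run of 5 mice with 3 labelled fl/fl. Acss3 was lower in iADKO in both, by mean log2 CPM differences of -0.76 and -1.43, and Acss1 was higher in both, by 0.32 and 0.16. Acsf2 differed by 0.020 in the run of 4 and by -0.71 in the run of 5, and Slc27a2 by 0.07 and -3.03. The run of 4 held fl/fl library 5 and iADKO library 6, those nearest the other genotype in their markers. Its fl/fl libraries had only 9 and 8 reads of Slc27a2. The run of 5 held fl/fl library 2, with hepatocyte transcripts and 71 reads of Slc27a2. The runs are thus no separate check on these libraries. With the run as a block, only Acss3 of the 4 called members kept its call (-1.11, edgeR adjusted p = 0.0129), and 1986 genes were called in all.

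Other genes that make, bind or use acyl-CoA were read from the same fit, in which 16.3% of all genes tested were lower and 14.1% higher. Of the 16 other synthetase genes, 10 were tested, and 7 were lower, with a median log2 fold change of -0.94 over those tested. The 7 include the relatives Acsl1, Slc27a1, Acss2 and Acsf3 already described. After Acss2 the largest were Acsm5 (-1.19), a mitochondrial medium-chain enzyme, and Aacs (-1.15), which activates acetoacetate. Of 11 thioesterase genes tested, whose products release the fatty acid from coenzyme A, 2 were lower, Acot4 (-1.22) and Acot2 (-0.42), with a median of -0.16 over the list, a share near that of all genes. Of 5 acyl-CoA binding genes 3 were lower, led by Dbi (-0.81), the main acyl-CoA binding protein, and Acbd4 (-0.68), and Acbd3 was higher (0.21). In the carnitine shuttle, which takes acyl groups into mitochondria, 4 of 7 genes were lower, led by Crat (-0.76), Cpt2 (-0.73) and Slc25a20 (-0.60), and Cpt1a was higher (0.36). Of 8 lysophospholipid acyltransferase genes, whose enzymes move acyl groups into phospholipids, 2 were lower, Lpcat3 (-0.50) and Agpat3 (-0.34), and 2 were higher, Mboat1 (0.33) and Lpcat1 (0.33).

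For each member, the genes most like it were sought by the Pearson r of log2 CPM over the 13 libraries after the mean of each genotype was subtracted, among 13687 genes. The libraries share their depth and cell mixture, so these values are a description of these mice. The r that unrelated genes would reach as the closest of so many was not computed. Acsl4 lay closest to Mef2a (r = 0.973), Itgam (0.942) and Clec5a (0.941); Itgam, one of the 9 macrophage markers, and Clec5a are genes of myeloid cells. Acss3 lay closest to Ptgr2 (0.950), Adig (0.950), a gene of adipocytes, and Pdk1 (0.941), the pyruvate dehydrogenase kinase. Slc27a4 was closest to Gss (0.973), Acsf2 to Fkbpl (0.925), Acss1 to Dph2 (0.859) and Acsl5 to Pde7b (0.850). Among the 45 pairs of members, r was highest for Acss3 with Acsf2 (0.626) and lowest for Acsl4 with Slc27a4 (-0.746).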

How the data were processed

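Bulk RNA-Seq of pmWAT from 7 fl/fl and 6 iADKO mice was used, grouped by the sample labels. The authors deposited raw counts per gene and, made from them, log2 values by the regularized log (rlog) of DESeq2. Strand-specific mRNA libraries were aligned with STAR 2.7.11a to mm39 after FastQC 0.12.1, per the submitters' notes; the counting tool, its strand setting and its annotation are not given in the sources used here. Symbols, coordinates and exon lengths came from GENCODE vM39 (GRCm39), which held 33184 of the 33618 identifiers, and promoter sequences from RefSeq (GRCm38.p6).

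In R 4.3.3, genes were filtered by filterByExpr (16753 kept), scaled by TMM and compared with the robust quasi-likelihood test of edgeR 4.0.16, without covariates; p-values were Benjamini-Hochberg adjusted over all genes tested, with a threshold of 0.05. CPM are TMM-normalised, and log2 CPM used a prior count of 2. Single values and within-library ratios were tested by exact two-sided permutation over the 1716 splits into 7 and 6, ratios with adjustment over 10 pairs. The test was tried on simulated counts first. Alternatives used limma 3.58.1 on the deposited log2 values and DESeq2 1.42.0. Libraries held 18854223 to 19776491 reads; errors are the spread between mice, which contains the counting error. The members and gene lists were chosen with earlier results of these data known. The genes named are the 10 members, their ratio partners, Lmna, the called genes of each acyl-CoA list (at most the 3 largest) and, for each member, the 3 genes most like it, printed in part. Hepatocyte and thermogenic gene lists were added after values were seen.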

Additional observations from a re-analysis of the deposited data

Results flagged for a closer look

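In 20 groups examined (10 genes in 2 genotypes), 2 held a library set apart from the rest of its group by Dixon's criterion, and chance alone flags about 1 in 20 groups. Both only just crossed the critical value. The gap over the range was 0.626 against 0.625 for Acss1, and 0.576 against 0.568 for Acss3. Acss1 in iADKO library 1 was at 23.1 CPM, below the 25.6 to 27.1 CPM of the other 5 iADKO libraries and inside the fl/fl range. Acss3 in fl/fl library 5 was at 138 CPM, below the 171 to 200 CPM of the other 6 fl/fl libraries and still above all iADKO libraries. That library also had the lowest adipocyte marker score and the highest macrophage marker score of the fl/fl group; the part of either in the Acss3 value was not tested.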

How the results depend on the processing

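Acss3 kept its direction and its call under every alternative run. DESeq2 size factors in edgeR changed no call, and with at least 10 counts in every library Slc27a2 and Acsl6 were not tested. Acsl6 passed the threshold with the DESeq2 Wald test (0.70), limma on the deposited log2 values (0.17) and without the fl/fl libraries 2 and 7 (0.91), each giving 2 members called higher. Slc27a2 lost its call without a low-count filter (-2.0) and with limma (-0.44). With the animal-number run as a block, 1986 genes were called (784 higher, 1202 lower), with 0 members higher and 1 lower; Slc27a2 was at -1.90, Acss1 at 0.23 and Acsf2 at -0.38. With the macrophage score as a covariate, 423 genes were called (182 higher, 241 lower), again with 0 and 1 members; Acsl4 turned to -0.20 and Slc27a4 to 0.0196, and Slc27a2 (-1.40), Acss1 (0.16) and Acsf2 (-0.14) lost their calls. Marker score and genotype vary together here, and the cause of these shifts was not tested.

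Libraries with the same replicate number deviated together weakly (r from -0.026 to 0.217 over 6 numbers), so the numbers were not read as pairs. A fit with the replicate number as a block, without fl/fl library 7, called 4833 genes; Acsl6 was at 0.94 (2 members higher) and Slc27a2 was not tested. The blocked ratio test found the same count of 7 pairs.

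Chosen after seeing the data, leaving out fl/fl library 5 and iADKO library 6 gave 2 members higher and 4 lower, with Slc27a3 at 0.28, Slc27a4 at -0.22 and Acss3 against Acss2 at 1.03. Without fl/fl libraries 2 and 7 Slc27a2 was not tested unless the filter was dropped too; then 3207 genes were called (1206 higher), Acsl5 was at -0.0006, Acsl6 at 0.89, Slc27a2 at -1.23 and Acss1 at 0.25 (adjusted p = 0.0506). Leaving out 1 library at a time gave 3998 to 6604 genes, 1 to 2 members higher and 2 to 3 lower. Over these fits Acsl6 ranged from 0.60 to 0.93, Slc27a2 from -2.65 to -1.75, Slc27a3 from 0.16 to 0.28, Acss3 against Acss2 from 0.63 to 1.00 and Acsf2 against Acsf3 from 0.15 to 0.25. The members outside the threshold moved too: Acsl3 ranged from -0.27 to -0.12, Acsl4 from 0.088 to 0.22, Acsl5 from 0.0084 to 0.042 and Slc27a4 from -0.20 to -0.099.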

Other observations

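Transcripts of thermogenic adipocytes (Ucp1, Cidea, Cox8b, Cox7a1 and Dio2, a list chosen after values were seen) summed to 31.7 to 127 CPM in fl/fl and 17.0 to 51.7 CPM in iADKO, and the groups overlapped. Cox8b was among the 3 genes most like Acsl6 once the genotype means were subtracted (r = 0.872, n = 13 libraries), although it was lower in iADKO, with a log2 fold change of -0.94 (edgeR adjusted p = 0.00401), while that of Acsl6 was 0.72. Prg2, a granule protein gene of eosinophils, was among the 3 most like Acsl5 (r = 0.804) and rose by 1.45 on the log2 scale (edgeR adjusted p = 0.00341). Cma1, the mast cell chymase gene, was among the 3 most like Acss1 (r = 0.820) and rose by 0.90 (edgeR adjusted p = 0.00135). Each of these was found by a search over 13687 genes in 13 libraries. The r that unrelated genes would reach in such a search was not computed, so no link between these cells and the members is drawn.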
